A study of Mus musculus with 2 samples.

Results

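Cholesterol synthesis genes were followed across lung sections of mice with and without breast cancer metastases, as the sterol arm of the SREBP programme. They were set against Fasn, 1 gene of the fatty acid arm. The genes were Hmgcs1, Sqle, Idi1, Fdps, Fdft1, Lss, Dhcr7 and Insig1. They were picked by symbol, and each symbol matched 1 of the 32285 features of the deposited matrices, so that 8 of 8 were measured. The set holds 7 enzymes and 1 regulator, and no gene of cholesterol uptake, so uptake and sterol transport are described from a separate list. The assay was Visium, in which messenger RNA of a tissue section is captured on a grid of barcoded spots that lie 100 µm apart and each cover several cells. The metastatic lung came from a female Balb/c mouse, 6 to 8 weeks old, in which 4T1 cells, a mouse mammary carcinoma line, had been placed orthotopically and which was euthanized 21 to 23 days later. The control lung came from an untreated female Balb/c mouse of the same age range. There was 1 section per condition, so no test between conditions was possible. Every interval below covers counting error only, and neither spots nor genes were used as replicates.

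Cells make cholesterol from acetyl-CoA through the mevalonate pathway. Its early enzymes build isoprenoid units, squalene synthase joins them into squalene, and the late enzymes close and trim the sterol rings. When sterols in the endoplasmic reticulum are scarce, SREBP-2 is released, cut in the Golgi and carried to the nucleus, where it switches on these enzymes together with genes of cholesterol uptake. INSIG1 holds the SREBP escort SCAP back when sterols are plentiful, and its own gene is an SREBP target. SREBP-1c acts mainly on fatty acid genes such as Fasn. Alveolar type II (AT2) cells use both arms, since the surfactant they secrete holds phospholipids and cholesterol.

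SREBPs bind sterol regulatory elements (SREs) and usually work beside NF-Y, a factor that binds CCAAT boxes. To show what the promoters of these genes look like, 250 bases before the gene start are printed for Hmgcs1, the first enzyme of the set, for Insig1 and Dhcr7, which stood furthest apart in the tumour, and for Fasn. Each reads 5′ to 3′ in the direction of the gene (RefSeq sequence, GRCm38.p6), and capitals mark the SRE (TCACNCCAC) and CCAAT boxes on either strand.
Hmgcs1 (chr13:119690101-119690350, plus strand): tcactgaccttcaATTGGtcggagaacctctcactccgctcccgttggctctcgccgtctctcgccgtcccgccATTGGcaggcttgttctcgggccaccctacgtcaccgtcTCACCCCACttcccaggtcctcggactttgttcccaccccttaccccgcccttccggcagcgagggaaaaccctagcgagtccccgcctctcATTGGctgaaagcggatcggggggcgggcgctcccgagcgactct
Insig1 (chr5:28071162-28071411, plus strand): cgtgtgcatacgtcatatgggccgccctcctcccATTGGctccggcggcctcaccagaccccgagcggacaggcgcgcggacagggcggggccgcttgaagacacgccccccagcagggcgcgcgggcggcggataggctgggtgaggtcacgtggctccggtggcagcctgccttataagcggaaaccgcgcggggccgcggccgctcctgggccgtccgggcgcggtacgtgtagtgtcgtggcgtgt
Dhcr7 (chr7:143822917-143823166, plus strand): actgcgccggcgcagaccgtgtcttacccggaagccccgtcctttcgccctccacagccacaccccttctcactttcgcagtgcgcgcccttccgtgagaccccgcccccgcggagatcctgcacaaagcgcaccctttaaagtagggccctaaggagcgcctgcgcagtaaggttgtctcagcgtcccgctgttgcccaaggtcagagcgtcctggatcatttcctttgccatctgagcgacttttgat
Fasn (chr11:120824548-120824797, minus strand): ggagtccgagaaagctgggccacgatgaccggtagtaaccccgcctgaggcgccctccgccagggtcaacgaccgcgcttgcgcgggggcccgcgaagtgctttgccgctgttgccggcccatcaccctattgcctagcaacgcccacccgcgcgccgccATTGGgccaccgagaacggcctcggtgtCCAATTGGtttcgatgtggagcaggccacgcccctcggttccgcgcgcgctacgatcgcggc
RefSeq promoter windows were matched for Hmgcs1, Idi1, Lss, Dhcr7 and Insig1, 5 of the 8 genes. Of the 3 windows that Dhcr7 has, the first is shown, and only that one was searched. Over a window of 250 bases before and 50 after the start, the SRE letters occurred in Hmgcs1 alone of these 5, against 1.22% of 27025 gene promoters. A CCAAT box on either strand occurred in 4 of the 5, in Fasn at 3 places that overlap in part, and in 10 of 11 matched windows of the other cholesterol enzymes, against 37.9% of all promoters. The exception among the members was Dhcr7, in the 1 window searched. The GC-box GGGCGG, searched on both strands, was found in 5 of 5 member windows and not in that of Fasn (35.9% of all promoters), and the E-box CACGTG in Insig1 alone of the members (7.24%). These matches are letters in a window and do not show binding.

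Levels are given as CP10k, the counts of a gene summed over a set of spots per 10000 counts of all genes in those spots. The control section held 1888 spots and 20329126 counts, and the metastatic section 1110 spots and 14657881 counts, with medians of 9643.5 and 11334.5 counts per spot. The 8 genes together had 5303 counts in the control section and 3763 in the metastatic section, so a single spot held few counts and all values rest on sums over spots. Tumour spots were found by clustering the metastatic spots without any lipid gene and taking the cluster with the highest mean tumour score. This score is that of a 4T1 marker list minus the mean of the AT2 and airway scores. High levels of the 4T1 list and low AT2 and airway content are thus part of the choice. The same cluster was also highest for the 4T1 list alone. This tumour cluster held 155 spots in connected groups of 123, 29, 2 and 1. Its leading genes were Mmp3, Ccl7, AA467197, Cxcl10, Ccl2, Pclaf, Top2a, Fbp2, Ighg2b and Etv4, none of which is in the 4T1 list. The summed 4T1 list was at 6.22 CP10k there and 3.61 far from it, with Hmga2 at 0.160 against 0.00485 and Areg at 0.389 against 0.0352. Epcam, at 0.197 against 0.542, and Fst, at 0.0602 against 0.190, were lower in the cluster, and Krt14 had no count in either. Macrophage and monocyte markers (8 of 8 detected) were at 18.4 against 4.68 CP10k and cycling genes (10 of 10) at 10.4 against 1.12, so the cluster is a mixed region and not pure cancer cells. Spots within 200 µm of it were called margin (108 spots) and spots over 500 µm away far lung (647 spots). The defining markers of AT2 cells (8 of 8) were detected in all compartments compared. Scgb1a1, the secretoglobin of club cells, took 23.5% of all counts in far lung, 15.1% in the margin and 0.341% in the tumour cluster, which sets the scale of every CP10k value. For this reason ratios are also given with a library size that leaves out Scgb1a1 and the haemoglobin, mitochondrial, surfactant protein and immunoglobulin genes, called below the reduced library size. It multiplies every ratio of a comparison by 1 constant, a shift of -0.53 on the log2 scale for tumour cluster over far lung (the median of all genes goes from 0.31 to -0.22), -0.26 for margin over far lung, and 0.61 and 0.67 for airway-rich over other spots in the control section and far lung.

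Per total counts, the summed level of the 8 genes differed by no more than counting error between the tumour cluster and the lung around it, while that of Fasn was higher in the tumour cluster. They were lower there with the reduced library size. The 8 genes were at 2.66 CP10k in the tumour cluster (95% interval 2.47 to 2.87, 664 counts), 2.70 in the margin (2.44 to 2.98, 388 counts) and 2.54 in far lung (2.44 to 2.65, 2097 counts). Spots mix cells, so fewer cells of a type and less RNA per cell cannot be told apart in these levels. The ratio of tumour cluster over far lung was 1.05 (0.958 to 1.14), and that of margin over far lung 1.06 (0.95 to 1.18). Fasn was at 2.77 CP10k in the tumour cluster, 2.23 in the margin and 1.62 in far lung, with ratios of 1.71 (1.56 to 1.87) and 1.37 (1.21 to 1.55). Set against Fasn, the sterol genes were thus lower: the ratio of the 8 genes divided by the ratio of Fasn was 0.614 (0.539 to 0.698) for the tumour cluster and 0.772 (0.654 to 0.912) for the margin. The library size cancels in these quotients. They speak for Fasn and not for its arm. The other fatty acid genes had a median log2 ratio of -0.57 in the tumour cluster, against -0.07 for the members. With the reduced library size the 8 genes were at 0.723 of far lung in the tumour cluster (0.662 to 0.790) and 0.886 in the margin (0.793 to 0.988), and Fasn was at 1.18 (1.07 to 1.29) and 1.15 (1.01 to 1.3).

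By distance, the summed members were at 2.69 CP10k in spots next to the tumour cluster, 2.71 up to 200 µm, 2.81 up to 300 µm, 2.35 up to 500 µm, 2.61 up to 800 µm and 2.50 beyond. No ring had an interval apart from that of the tumour cluster or of the spots beyond 800 µm. The profile was not flat with the reduced library size: the members were at 2.72 per 10000 remaining counts in the tumour cluster (2.52 to 2.94), and at 3.26, 3.41, 3.52, 3.36, 3.77 and 3.76 (3.55 to 3.97) in the rings, of which only that next to the tumour cluster overlapped with it. Fasn was at 2.59, 1.90, 2.15, 1.54, 1.60 and 1.64 CP10k in the same rings. Its interval in the ring next to the tumour cluster (2.22 to 2.99) lay wholly above those of the 3 rings beyond 300 µm. These levels of Fasn use all counts as library size. The abundant genes took 17.6% of counts in the ring next to the tumour cluster and 33.4% beyond 800 µm. With the reduced library size Fasn was at 2.83 per 10000 remaining counts in the tumour cluster, 2.76 in the margin and 2.40 in far lung. Markers of other cells moved along the same rings. Macrophage and monocyte markers were at 12.9 CP10k in the ring next to the tumour cluster and 4.70 beyond 800 µm, cycling genes at 4.64 and 1.17, AT1 markers at 24.6 and 38.4, and AT2 markers at 171 and 179, and their part in the gene levels was not tested.

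**Figure D1:**
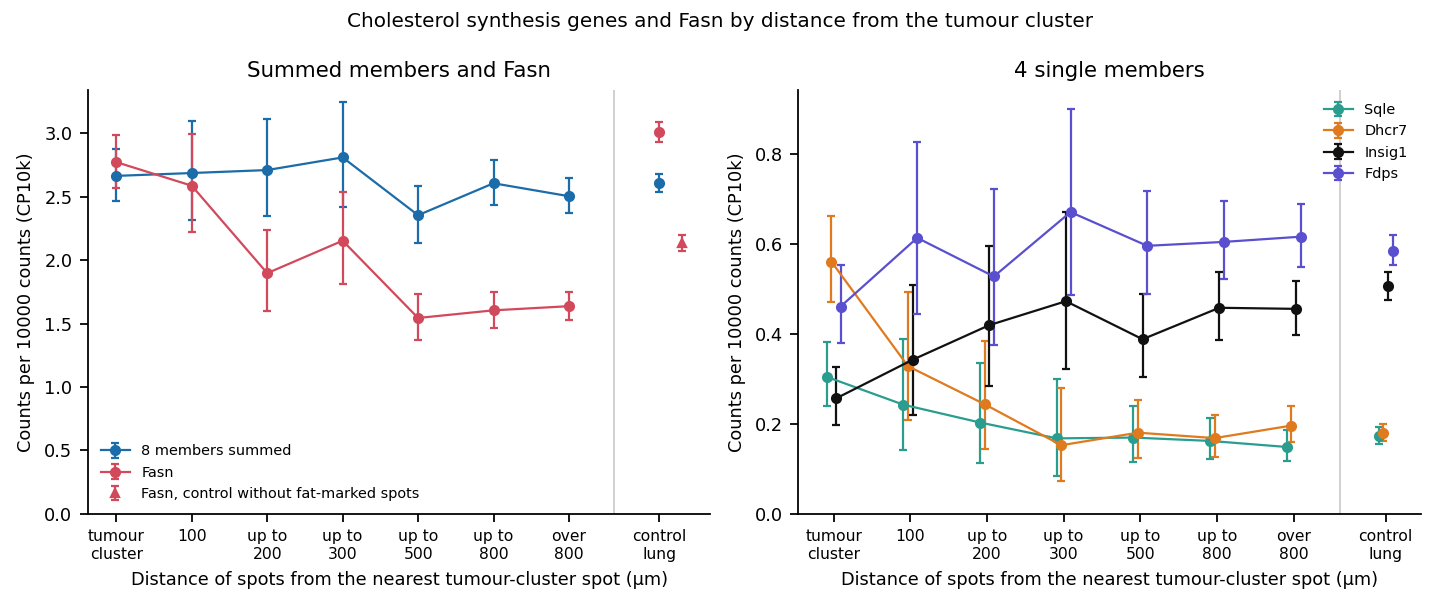
CP10k of the summed 8 members and Fasn (left) and of 4 single members (right) in the tumour cluster, in rings of spots at growing distance from it and in the control lung, with bars for 95% Poisson intervals. With all counts as library size, the summed members stay between 2.35 and 2.81 CP10k in all rings while Fasn goes from 2.77 in the tumour cluster to 1.64 beyond 800 µm, and on the right Dhcr7 and Sqle are highest in the tumour cluster where Insig1 is lowest.

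Single genes stood in opposite directions in the tumour cluster. A ratio of at least 1.5 either way, with at least 50 counts, was used as a mark of size. Of the 8 genes, Dhcr7 and Sqle were past it upwards and Insig1 downwards, where 38.4% of the 11461 genes with enough counts were past it upwards and 22.0% downwards. The members' median log2 ratio was -0.07, against 0.31 over all genes tested. Dhcr7 alone was past it upwards with the reduced library size (19.3% of genes), and 4 were past it downwards, Fdps, Fdft1, Lss and Insig1 (35.1% of genes).

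Dhcr7 (ENSMUSG00000058454), the reductase that makes cholesterol from 7-dehydrocholesterol, was at 0.562 CP10k in the tumour cluster (0.472 to 0.663, 140 counts), 0.285 in the margin (41 counts), 0.186 in far lung (153 counts) and 0.181 in the control lung (367 counts). A count was found in 56.1% of tumour spots and in 21.2% of far spots. Tumour cluster and far lung did not overlap in their intervals. The ratio was 3.03 (2.39 to 3.83) over far lung, and 2.09 (1.65 to 2.65) with the reduced library size. It was 3.05 in the largest group of tumour spots and 2.82 (1.38 to 5.18) in the 32 others, and 2.69 in the 70 spots with the highest tumour score. Around the tumour cluster Dhcr7 stepped from 0.329 CP10k in adjacent spots to 0.244 up to 200 µm and 0.153 up to 300 µm, and was 0.196 beyond 800 µm, with intervals of neighbouring rings that overlapped. The margin stood at 1.54 times far lung (1.06 to 2.18), and Dhcr7 was the only one of the 8 past 1.5 there, where 20.1% of genes were past it upwards and 4.05% downwards. That ratio was 1.28 (0.886 to 1.82) with the reduced library size and no member was past the mark (8.63% of genes upwards, 8.74% downwards). With all counts it was 2.11 around the largest group against 1.24 around the other tumour spots.

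Sqle (ENSMUSG00000022351), squalene epoxidase, which performs a rate-limiting oxygen-dependent step, was at 0.305 CP10k in the tumour cluster (76 counts), 0.223 in the margin (32 counts), 0.154 in far lung (127 counts) and 0.174 in the control lung (354 counts). The tumour cluster over far lung ratio was 1.98 (1.47 to 2.65), and 1.37 (1.01 to 1.83) with the reduced library size. The 32 tumour spots outside the largest group held 3 counts and gave 0.925 (0.188 to 2.77), too few to resolve a difference. Within the tumour cluster, Sqle was at 0.180 CP10k in the third of spots with the lowest tumour score, 0.243 in the middle and 0.412 (0.303 to 0.548) in the highest. The score is the 4T1 list minus the mean of the AT2 and airway scores. The Sqle intervals of the lowest-score and middle-score spots each overlapped with that of the highest-score spots. This order of Sqle levels rests on few counts and was not tested. Dhcr7 showed no such order, with 0.522, 0.609 and 0.552 CP10k. Fasn ran the other way, at 3.90 CP10k (3.42 to 4.43) in the lowest, 2.53 in the middle and 2.32 (2.05 to 2.62) in the highest. AT2 markers, whose score is subtracted in the tumour score, were at 127, 46.9 and 14.1 CP10k over the same spots. Cycling genes were at 8.11, 9.59 and 12.1, and the part of these cells was not tested.

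Insig1 (ENSMUSG00000045294), which retains the SREBP escort, was at 0.257 CP10k in the tumour cluster (0.198 to 0.328, 64 counts), 0.382 in the margin (55 counts), 0.457 in far lung (0.412 to 0.506, 377 counts) and 0.506 in the control lung (1029 counts). It was at 0.562 of far lung (0.424 to 0.734), and at 0.388 (0.293 to 0.507) with the reduced library size, where it was 1 of 4 members under the downward mark. From spots next to the tumour cluster outwards it was at 0.343, 0.420, 0.473, 0.389, 0.459 and 0.456 CP10k, with intervals that overlapped throughout.

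The early enzymes lay closer to far lung with all counts as library size. Hmgcs1 (ENSMUSG00000093930), HMG-CoA synthase, was at 0.477 CP10k in the tumour cluster and 0.490 in far lung (ratio 0.974, 0.787 to 1.20). Idi1 (ENSMUSG00000058258), the isomerase of isopentenyl diphosphate, was at 0.201 and 0.166 (1.21, 0.855 to 1.68). Fdps (ENSMUSG00000059743), which makes farnesyl diphosphate and so also feeds protein prenylation, was at 0.461 and 0.612 CP10k, a ratio of 0.753 (0.610 to 0.924) whose interval stayed under 1. Of the sterol-committed enzymes, Fdft1 (ENSMUSG00000021273), squalene synthase, was at 0.273 against 0.341 (0.80, 0.605 to 1.05) and Lss (ENSMUSG00000033105), lanosterol synthase, at 0.128 against 0.137 (0.937, 0.612 to 1.40). With the reduced library size Fdps was at 0.520, Fdft1 at 0.553 and Lss at 0.647 of far lung, and Hmgcs1, Fdps, Fdft1, Lss and Insig1 all had intervals under 1, Dhcr7 and Sqle above 1, and Idi1 spanned it.

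**Figure D2:**
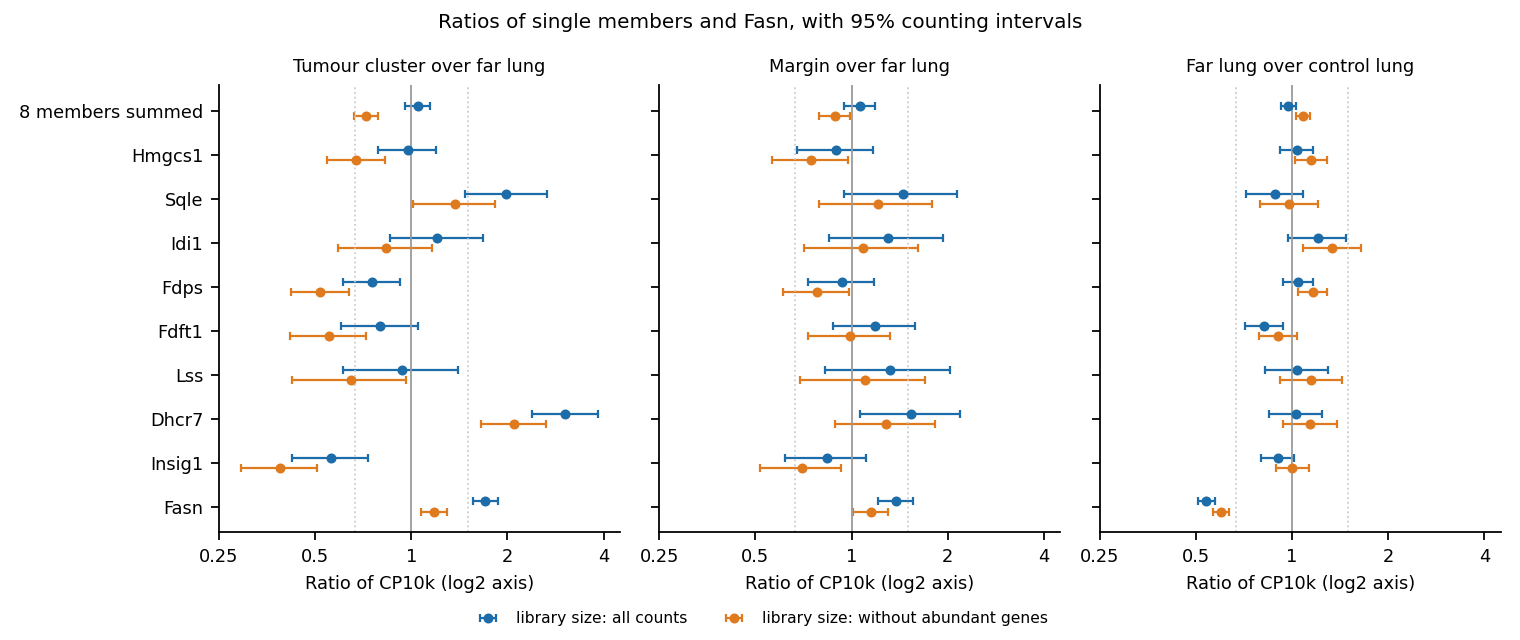
Ratios of CP10k for the summed 8 members, each member and Fasn on a log2 axis, for tumour cluster over far lung, margin over far lung and far lung over control lung. Points carry 95% counting intervals, in blue with all counts as library size and in orange without the abundant genes, and dotted lines mark 1.5-fold. Dhcr7 at 3.03 and Insig1 at 0.562 lie on opposite sides of 1 in the first panel, and Fasn at 0.540 is the gene furthest from 1 in the last.

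The other genes of the pathway were split in the same comparison. Of 11 further cholesterol enzymes, 1 was past 1.5-fold upwards in the tumour cluster and 1 downwards. Of all genes tested, 38.4% were past it upwards and 22.0% downwards. Hsd17b7, a late ketosteroid reductase, was at 0.124 against 0.0497 (2.50, 1.52 to 4.09). Tm7sf2, a sterol C14 reductase, was lower, at 0.0441 against 0.0813 (0.543, 0.259 to 1.04). Among the 5 SREBP regulators only Mbtps2, the site-2 protease that frees the active factor, passed the mark (2.04, 1.42 to 2.90). Srebf2 itself was at 0.574 against 0.660 CP10k (0.870, 0.718 to 1.05). Under the other library size 6 of the 11 enzymes were past 1.5-fold downwards and Hsd17b7 alone upwards, and of the regulators Srebf2 was past it downwards and none upwards. The shares of all genes were then 35.1% downwards and 19.3% upwards.

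None of the 8 uptake and transport genes passed 1.5-fold in the tumour cluster (38.4% of all genes upwards, 22.0% downwards). Their median log2 ratio was 0.09, against 0.31 over all genes tested. The reduced library size put 2 of them past it downwards (35.1% of genes). In the efflux and storage list Ch25h, which makes 25-hydroxycholesterol, was at 0.333 against 0.0606 CP10k (5.49, 3.82 to 7.96) and Nr1h3, the oxysterol receptor LXRα, at 0.273 against 0.605 (0.451, 0.345 to 0.582). In the margin Apoe was at 13.4 against 7.2 CP10k (1.86, 1.76 to 1.96), Ch25h at 0.202 (3.33, 2.03 to 5.36), Stard4, a cytosolic sterol carrier, at 0.153 against 0.0885 (1.73, 1.02 to 2.82), Sc5d, a late desaturase, at 0.389 against 0.221 (1.76, 1.28 to 2.39) and Hsd17b7 at 0.139 (2.80, 1.55 to 4.89). In the margin 20.1% of all genes were past 1.5-fold upwards. No gene of these 4 lists was past it downwards there (4.05% of all genes). With the reduced library size only Hsd17b7, Apoe and Ch25h were past it upwards (8.63% of genes).

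Fasn stood above the median of its own arm in the tumour cluster. Of 14 further fatty acid genes with enough counts, Acly, which makes cytosolic acetyl-CoA, and Elovl6, which lengthens palmitate, were past the mark upwards, at 2.19 against 1.02 CP10k (2.15, 1.93 to 2.40) and 0.249 against 0.0497 (5.0, 3.32 to 7.61). The 7 genes past it downwards were Acss2, Scd1, Scd2, Elovl5, Gpam, Fads1 and Fads2. Of all genes tested, 38.4% were past it upwards and 22.0% downwards. Scd1, a stearoyl-CoA desaturase, was at 2.06 against 3.79 (0.543, 0.493 to 0.596), and Gpam, the acyltransferase that begins glycerolipid synthesis, at 0.421 against 0.736 (0.572, 0.461 to 0.705). The list's median log2 ratio was -0.57, against -0.10 for the 11 further cholesterol enzymes and 0.31 over all genes tested. Without the abundant genes in the library size 9 of the 14 were past the mark downwards (35.1% of all genes) and Elovl6 alone upwards (19.3%).

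**Figure D3:**
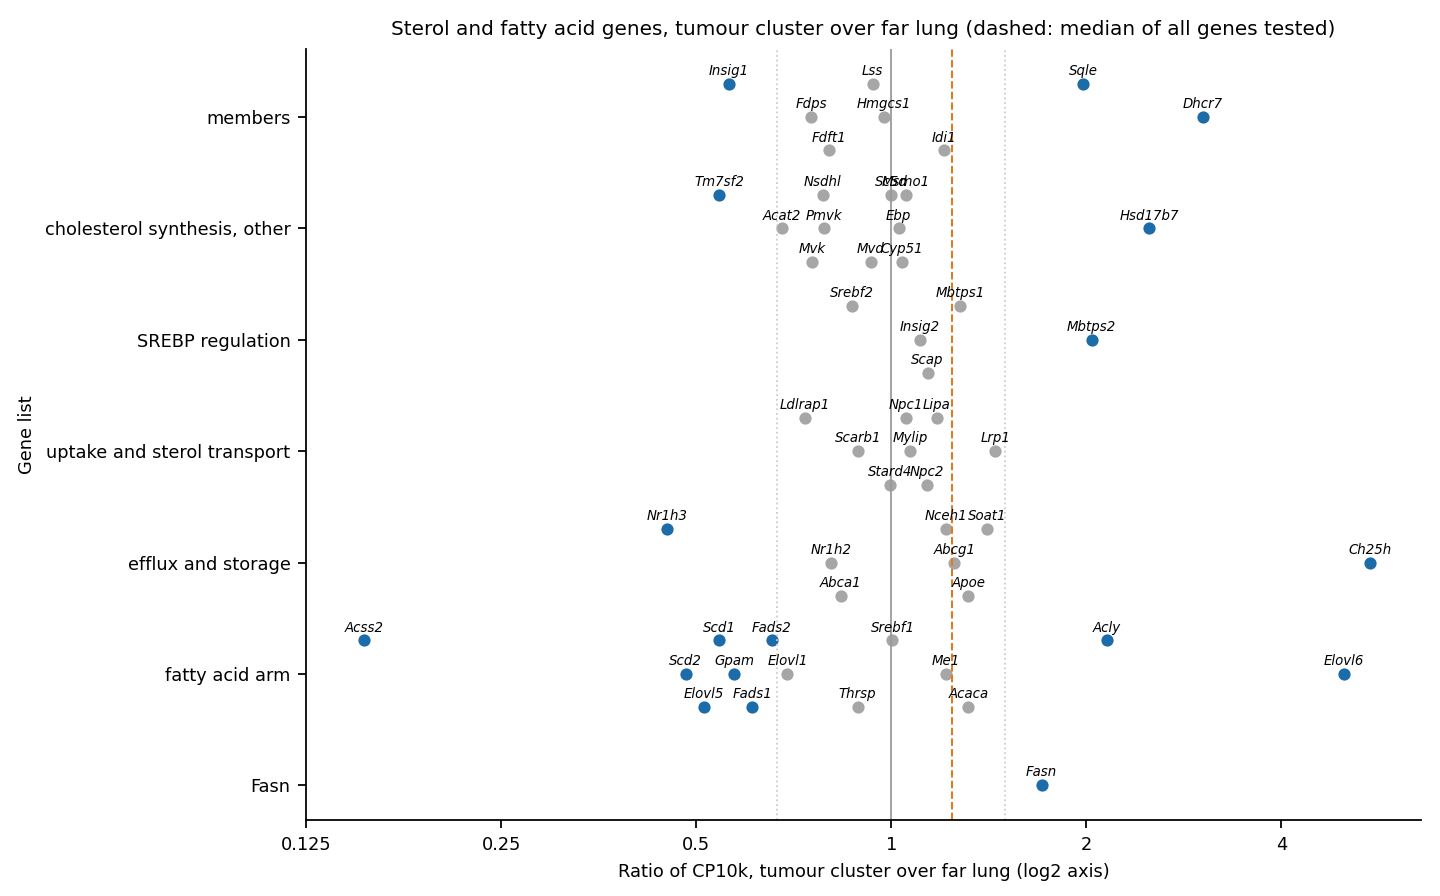
Ratio of CP10k in the tumour cluster over far lung on a log2 axis for each gene with at least 50 counts, by list. Blue points are past 1.5-fold either way and grey points are not, dotted lines mark 1.5-fold and the dashed line is the median of all genes tested. Every list but that of uptake and transport has blue points, and the fatty acid arm holds genes from Acss2 at 0.154 to Elovl6 at 5.0.

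With AT2 content the summed level of the 8 genes was higher in both sections. Spots were ordered by a mean z-score of 8 AT2 genes and cut into bins of 20% of the spots. In the control section the summed members were at 1.62, 2.21, 2.89, 3.22 and 3.49 CP10k from the lowest to the highest, and in far lung at 1.39, 2.31, 2.61, 3.30 and 3.90. These levels use all counts as library size, which steepens the order. The genes left out of the reduced library size took 47.1% of counts in the lowest control bin and 11.6% in the highest. In far lung they took 53.3% and 17.8%. The highest and the lowest bins lay far apart, while neighbours overlapped in their intervals at 2.89, 3.22 and 3.49 in the control section, and in far lung 2.31 overlapped with 2.61 and 3.30 with 3.90. The top 20% of spots over the other spots gave 1.45 (1.36 to 1.54) in the control section and 1.76 (1.59 to 1.94) in far lung. In the control section 3 of 8 genes were past 1.5-fold upwards, Hmgcs1, Fdft1 and Lss (16.0% of all genes tested were past it upwards and 6.30% downwards). In far lung 5 of 8 were, Hmgcs1, Idi1, Fdps, Dhcr7 and Insig1 (24.9% upwards and 4.08% downwards), and Lss at 1.49 and Fdft1 at 1.47 lay just under it. No member was past it downwards. The members' median log2 ratio was 0.53 in the control section and 0.71 in far lung, against 0.36 and 0.38 over all genes tested. Airway counts were fewer in the AT2-rich spots: Scgb1a1 and the other airway genes summed to 422 CP10k in the highest bin and 4150 in the lowest of the control section. Their part in the ratios was not tested beyond the change of library size and the removal of airway-rich spots, which gave the lower ratios listed in the last section. With the reduced library size the ratios were 1.18 (1.11 to 1.26) and 1.38 (1.25 to 1.53). Then 0 of 8 genes were past 1.5-fold in the control section, where Hmgcs1 was highest at 1.31 (2.43% of genes upwards, 8.88% downwards), and 2 of 8 in far lung, Idi1 at 1.80 and Fdps at 1.62 (3.5% upwards, 7.90% downwards).

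Bin levels of single genes are given with all counts as library size. Fdps went in far lung from 0.297 CP10k in the lowest AT2 bin to 1.04 (0.875 to 1.22) in the highest, against 0.324 and 0.764 in the control section. Its ratio of AT2-rich over other spots was 2.06 (1.68 to 2.52) in far lung and 1.40 (1.22 to 1.60) in the control section. Idi1 went from 0.0848 to 0.307 CP10k in far lung and from 0.0894 to 0.171 in the control section. Hmgcs1 was at 0.235 and 0.686 CP10k at the ends of the control order and 0.246 and 0.746 at those of far lung. Insig1 was at 0.346 and 0.683, and at 0.199 and 0.688. Sqle did not follow AT2 content in the control section, with 0.184 CP10k at both ends and a ratio of 1.09 (0.830 to 1.42), or 0.888 (0.675 to 1.15) with the reduced library size. Its ratio in far lung was 1.43 (0.889 to 2.21). The interval of Idi1 in the control section (1.31, 0.980 to 1.74) also spanned 1. Among the other lists, 6 of 11 cholesterol enzymes were past 1.5-fold upwards in AT2-rich spots of the control section (16.0% of all genes). In far lung 7 of 10 were (24.9% of all genes). With the reduced library size these counts were 3 in the control section (2.43% of genes) and 1 in far lung (3.5% of genes).

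With all counts as library size, Fasn followed the AT2 order of the control section once fat-marked spots were set aside. The genes that mark them were chosen after the control spots with most Fasn counts had been seen. High Fasn in these spots, and its change without them, are thus partly built into that choice and are no independent result. Car3, Adipoq, Cidec and Plin1, genes of fat cells, marked 48 spots of the control section, and these held 30.8% of its Fasn counts but 2.55% of the counts of the 8 genes. Fasn was at 38.4 CP10k there and at 2.13 in the remaining control spots, whereas the members were at 2.75 and 2.60. Cardiac muscle markers were also present in these spots, at 154 CP10k against 26.2 in the rest. Without the fat-marked spots Fasn was at 1.21, 1.75, 2.21, 2.61 and 3.25 CP10k by AT2 bin of the control section, where with them the lowest stood at 4.19. Its ratio of AT2-rich over other spots was 1.08 (1.02 to 1.15) with the fat-marked spots and 1.71 (1.60 to 1.83) without, and 1.64 (1.44 to 1.87) in far lung. With the reduced library size it was 1.29 (1.13 to 1.47) in far lung, and 0.881 (0.827 to 0.938) in the control section with the fat-marked spots. Without the fat-marked spots the ratio of the members over that of Fasn was 0.852 (0.777 to 0.934) in the control section, and in far lung, where only 1 spot of the whole metastatic section was marked, it was 1.07 (0.908 to 1.26).

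**Figure D4:**
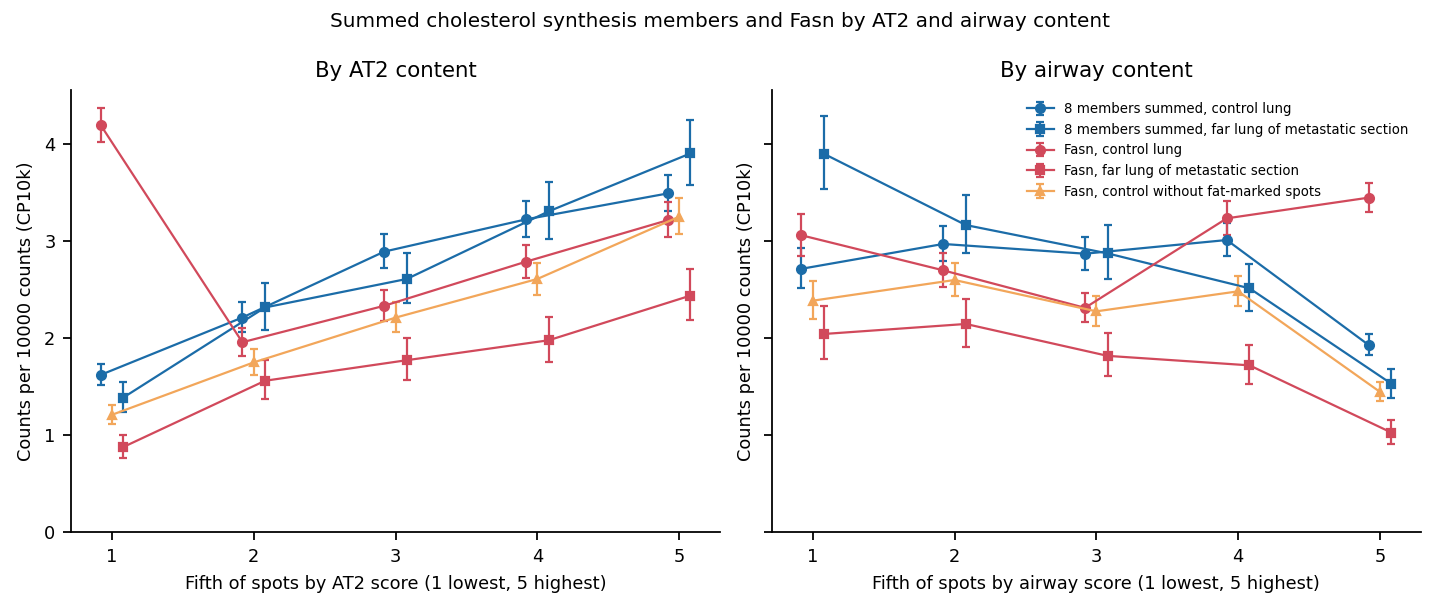
CP10k of the summed 8 members (blue) and Fasn (red, and orange without the fat-marked spots) by bins of 20% of the spots in order of AT2 score (left) and airway score (right), with 95% Poisson intervals. Circles are the control lung and squares the far lung of the metastatic section. All levels use all counts as library size. The members go from 1.62 to 3.49 CP10k with AT2 content in the control lung and from 1.39 to 3.90 in far lung, and Fasn of the lowest AT2 bin in the control lung is at 4.19 with the fat-marked spots and 1.21 without.

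In the airway-rich spots, the top 20% by a score of 10 airway genes, the 8 genes were at 1.93 CP10k against 2.91 in the other control spots (0.665, 0.623 to 0.710) and at 1.57 against 3.05 in far lung (0.514, 0.462 to 0.571). In the control section 5 of 8 genes were past 1.5-fold downwards (66.5% of all genes were past it downwards and 6.52% upwards), and in far lung 7 of 8 (66.5% and 3.63%). Scgb1a1 took 39.6% and 46.5% of the counts of these spots, against 4.48% and 11.5% of the others. With the reduced library size the ratio was 1.02 (0.954 to 1.09) in the control section, on the other side of 1, and 0.820 (0.736 to 0.911) in far lung. The counts past 1.5-fold downwards were then 0 of 8 in the control section (19.8% of genes) and 1 of 8 in far lung, Idi1 at 0.496 (15.9% of genes), and Sqle was past it upwards in both (12.4% and 9.99% of genes). Sqle was at 0.185 CP10k against 0.169 (1.09, 0.866 to 1.37) in the control section, and in far lung it was at 0.153 against 0.155 (0.988, 0.667 to 1.44). It was at 1.67 (1.32 to 2.09) and 1.58 (1.07 to 2.30) with the reduced library size. Idi1 had the lowest ratio in far lung, at 0.311 (0.181 to 0.507), and Dhcr7 in the control section, at 0.470 (0.352 to 0.618). Fasn was at 1.22 (1.16 to 1.29) in airway-rich over other control spots, and at 0.572 (0.529 to 0.618) without the fat-marked spots. It was at 0.526 (0.460 to 0.60) in far lung. With the reduced library size it was at 1.87 (1.77 to 1.97) in the control section with the fat-marked spots, and at 0.840 (0.735 to 0.958) in far lung.

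The AT2-rich spots of the margin were compared with those of far lung, since lipid synthesis of AT2 cells near metastases is the question of the study. The margin held 35 such spots with 395279 counts and far lung 118 with 1260828. The 8 genes were at 3.39 CP10k (134 counts) and 4.01 (505 counts), a ratio of 0.846 (0.694 to 1.03), and Fasn at 2.73 (108 counts) and 2.43 (306 counts), a ratio of 1.13 (0.895 to 1.41). Neither difference was larger than counting error, nor was the quotient of these ratios at 0.752 (0.557 to 1.02). With the reduced library size Fasn was at 1.01 (0.80 to 1.26). The interval of the members left 1 with the reduced library size, at 0.756 (0.621 to 0.917), and with the top 10% of AT2 spots, at 0.707 (0.539 to 0.916). Hmgcs1, with 17 and 97 counts, was at 0.430 against 0.769 CP10k, and its ratio of 0.559 (0.313 to 0.942) was the only one of the 8 with an interval off 1. That of Fdps was off 1 too with the reduced library size, at 0.603 (0.390 to 0.906). Of the 6 members with enough counts, Hmgcs1 was past 1.5-fold downwards and Dhcr7 upwards, at 1.60 (0.836 to 2.94), against 7.29% and 16.1% of the 5748 genes. On the reduced library size Hmgcs1 and Fdps were past it downwards (12.5%) and none upwards (9.22%). The study defined AT2 cells of its single-cell data by 5 genes, and with these as the score the summed ratio was 0.999 (0.792 to 1.25). For its Visium data the study reported upregulated Fasn in AT2-enriched spots near metastases, with both kinds of spots defined otherwise than here. AT2 markers were at 262 CP10k in these margin spots and 301 in those of far lung, macrophage and monocyte markers at 12.1 and 5.17, and their part was not tested.

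Between the sections Fasn differed by more than the 8 genes did. Far lung over control gave 0.975 (0.926 to 1.03) for the summed members, with 0 of 8 past 1.5-fold (2.48% of all genes upwards, 13.0% downwards). Fdft1 was at 0.341 against 0.417 CP10k (0.817, 0.711 to 0.936), and the intervals of the other 7 spanned 1. The summed ratio with the reduced library size was 1.08 (1.03 to 1.14), Hmgcs1, Idi1 and Fdps had intervals above 1, Fdft1 spanned 1, and still none was past 1.5-fold (4.09% of genes upwards, 7.89% downwards). Fasn was at 1.62 against 3.01 CP10k (0.540, 0.508 to 0.573), and at 0.761 (0.715 to 0.810) when the fat-marked control spots were left out. The ratio of the members over that of Fasn was then 1.28 (1.18 to 1.39). These values compare 2 sections and not 2 conditions, and the sections differed in content. AT2 markers were at 169 CP10k in far lung and 268 in the control section, airway markers at 2395 and 1590, neutrophil markers at 24.5 and 2.14, and cardiac muscle markers at 0.0679 and 29.3, and their part was not tested. In the fatty acid list 5 of 15 genes were past 1.5-fold downwards and 0 upwards, with the fat-marked control spots included. Among them Thrsp, a lipogenic nuclear protein abundant in fat, was at 0.0497 against 0.400 CP10k (0.124, 0.0884 to 0.170), and Gpam at 0.736 against 1.19 (0.619, 0.565 to 0.677). Of the sterol lists, with all counts as library size, Tm7sf2 was past 1.5-fold upwards (1.5, 1.09 to 2.05), and Stard4 (0.647, 0.493 to 0.841) and Nceh1, which hydrolyses cholesteryl ester (0.652, 0.566 to 0.749), downwards. With the reduced library size only Tm7sf2 upwards and Thrsp downwards were past it in the sterol and fatty acid lists.

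**Figure D5:**
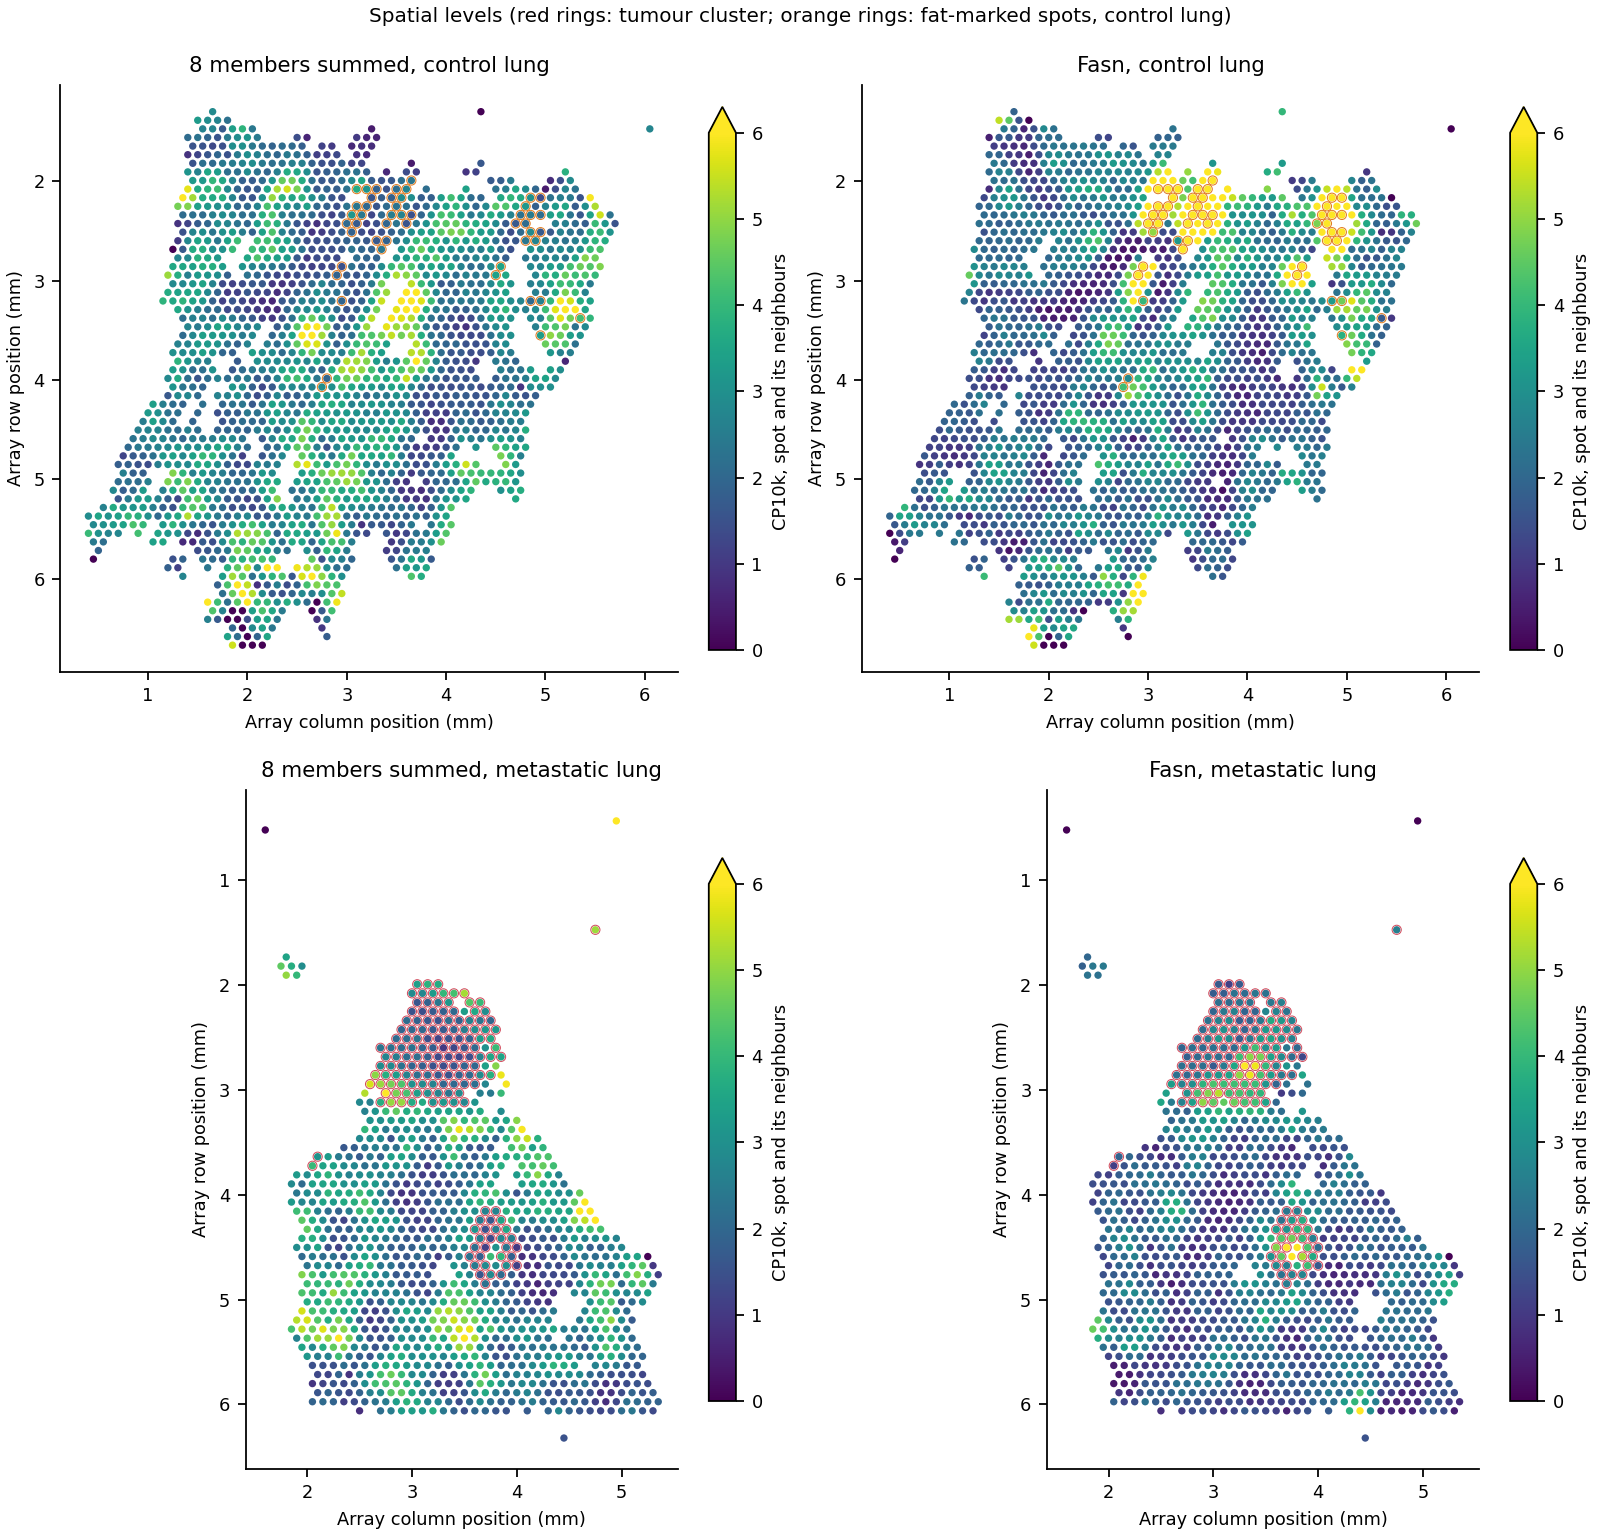
Positions of all spots of the control (top) and metastatic (bottom) section on the array in mm, coloured by CP10k of the summed 8 members (left) and Fasn (right), each pooled over a spot and its direct neighbours, with colours ending at 6. Red rings are the 155 tumour-cluster spots and orange rings the 48 fat-marked control spots, where Fasn is at 38.4 CP10k and the members are at 2.75.

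Local variation was summed up over square tiles of neighbouring spots, 60 in the control and 37 in the metastatic section. The summed members ranged from 1.26 to 4.07 CP10k over control tiles (median 2.71) and from 1.21 to 4.06 over metastatic tiles (median 2.83). Fasn ranged from 1.12 to 22.4 (median 2.34) and from 0.692 to 3.81 (median 1.91). Among 4416 genes with at least 500 counts in each section, the 8 whose log2 tile levels tracked the summed members most closely, by the lower Pearson r of both sections, were Eif4h, Sec62, Cyb5r3, Smim10l1, Ehd1, Hpcal1, Tor3a and Bicd2, with lower r from 0.60 for Bicd2 to 0.663 for Eif4h. Of the lipid genes, Elovl5 (0.581), Fads1 (0.562) and Elovl1 (0.508) ranked highest. Srebf2 had r of 0.476 in the control and 0.374 in the metastatic section. Fasn had r of 0.141 in the control section, fat-marked spots included, and 0.584 in the metastatic section. These coefficients are across tiles that share a section, a library size and its airway content, and they describe likeness only.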

How the data were processed

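Visium counts of 1 control and 1 metastatic (4T1 m.f.p.) lung section were analysed. Per the file headers and the submitters' processing notes, the authors deposited unnormalized UMI counts for the spots under tissue, from Space Ranger 1.3.1 and mm10. The 8 members and all gene and marker lists were chosen with earlier results of these data known. Genes of the lists were named at 50 counts and 1.5-fold in a comparison with tumour, margin or control; Srebf2 was named after its values were seen. Some genes of these lists are not reported here and were left out of the list counts.

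For CP10k, counts were summed over spots and divided by the total, and 95% limits are exact Poisson limits. Those of ratios came from the binomial split of both counts, and those of quotients from the exact conditional distribution. Intervals cover counting error only, and no p-value was computed over spots. To find tumour spots, metastatic spots were split into 5 by k-means, using 20 components of 2000 variable genes without the lipid genes. AT2-rich and airway-rich spots were the top 20% by mean z-score outside the tumour cluster. Fat-marked spots had at least 5 counts of 4 fat genes, chosen after the control spots with most Fasn counts had been seen. Tiles were 6 array rows by 12 columns with at least 10 spots. Like genes used log2(CP10k + 0.1). Alternatives changed library size (without 424 abundant genes), depth (5000 counts per spot), pooling, tumour spots, score lists, shares and distance. Scripts were tested on simulated data. Software was scikit-learn 1.9.0 for clustering, scipy 1.17.1 for intervals, matplotlib 3.10.9 for figures, and numpy 2.4.6 under Python 3.11.15.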

Additional observations from a re-analysis of the deposited data

How the results depend on the processing

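No paired analysis was possible because each condition had 1 section and the sections share no animal. Of the summed members, tumour over far lung was 0.723 with the reduced library size, 0.875 with spots thinned to 5000 counts, 0.906 as a mean of per-spot CP10k, 0.956 as the median of the 8 ratios and 0.859 in the smaller tumour groups. Margin over far lung was 0.886 with the reduced library size, 1.24 as the median, 0.935 with the 70 spots of highest tumour score, 1.35 around the largest group and 0.912 around the others. AT2-rich over other control spots was 1.18 with the reduced library size, 1.33 thinned, 1.33 per spot and 1.29 without airway-rich spots. In far lung it was 1.38, 1.55, 1.58 and 1.43 in the same order, and 1.98 with the top 10%. Airway-rich over other control spots was 1.02 with the reduced library size, 0.738 thinned, 0.722 per spot, 0.577 with the top 10% and 0.744 with the top 30%. In far lung it was 0.820 with the reduced library size, 0.645 per spot and 0.457 with the top 10%. Far lung over control was 1.08 with the reduced library size, 1.06 thinned, 1.03 as the median and 1.03 with the 70 spots. The cause was not tested.

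Single genes whose interval lay off 1 and that turned to its other side were Fasn in AT2-rich control spots (0.881 with the reduced library size, 0.881 thinned, 0.897 per spot) and in airway-rich control spots without fat-marked spots (0.572), Sqle in the smaller tumour groups (0.925), and with the reduced library size Idi1 (1.04), Fdft1 (1.13) and Insig1 (1.02) in airway-rich control spots and Lss (1.01) in airway-rich far lung. Of those whose interval spanned 1, the reduced library size also turned Idi1 in the tumour cluster (0.834), Fdft1 in the margin (0.989), Lss in the AT2-rich margin (0.95), Sqle in AT2-rich control spots (0.888) and airway-rich far lung (1.58), and Insig1 in far lung over control (1.003). With 20 counts as the minimum, genes past 1.5-fold numbered 788 in place of 446 downwards in the margin, 1960 for 928 upwards and 926 for 419 downwards in the AT2-rich margin, 873 for 431 downwards in AT2-rich far lung, and 684 for 383 upwards in airway-rich far lung. The counts past 1.5-fold and the ring levels with the reduced library size were added after seeing the data. Genes past 1.5-fold then numbered 2217 for 4398 upwards and 4028 for 2519 downwards in the tumour cluster, 951 for 2220 and 963 for 446 in the margin, 530 for 928 and 718 for 419 in the AT2-rich margin, 313 for 2059 upwards in AT2-rich control spots, 370 for 2630 and 835 for 431 in AT2-rich far lung, 1590 for 839 and 2553 for 8559 in airway-rich control spots, 1055 for 383 and 1675 for 7023 in airway-rich far lung, and 547 for 331 and 1055 for 1742 in far lung over control. Thinning left out 362 control and 82 metastatic spots. Of the 70 spots with the highest tumour score, 66 were in the tumour cluster. Depth limits single genes in the smaller tumour groups, where Sqle had 3 counts, and in the AT2-rich margin, where Sqle had 4 and Lss 8.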
